A study of Homo sapiens with 6 samples.

Results

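The array carried probes for 46 genes of the extracellular matrix proteases and their inhibitors, out of 30484 gene names in all. They are the genes whose name in the array files is MMP, ADAMTS or TIMP followed by a number (23 MMP, 19 ADAMTS and 4 TIMP genes), and they were measured by 68 of the 41000 probes. All samples were RH36 cells, an established line of embryonal rhabdomyosarcoma without the PAX3/FOXO1 fusion gene. The cells received either the precursor of miR-27a (pre-miR-27a, 3 arrays) or a negative control precursor (pre-control, 3 arrays), at 10 nM by the labels. The labels place the pre-miR-27a samples 48 hours after transfection and give no time for the RNA of the pre-control samples, and the study's text gives another concentration and time for such transfections, so dose and time are not settled here. The line stands for 1 tumour, the precursor is present only transiently, and the labels call the replicates biological without saying what separated them, so the tests below measure the spread between these 6 samples.

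Matrix metalloproteinases (MMP) are zinc proteases that are made as inactive precursors and cut collagens, laminins, proteoglycans and many other proteins outside the cell. ADAMTS proteases are secreted relatives that carry thrombospondin repeats and cut proteoglycans, the propeptides of collagens and von Willebrand factor. TIMP proteins bind the active site of these enzymes and block it. In tumours of the muscle lineage, as in other sarcomas, the balance of these genes is studied for its part in the passage of cells through matrix, and the study that made these arrays also tested migration and invasion of RH36 cells. It reported that miR-27a overexpression changed neither of them significantly.

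A microRNA acts through its seed, bases 2 to 8, which pairs with messenger RNAs. The mature product of the transfected precursor is shown here because it is the agent that separates the groups, with the seed in capitals, from RefSeq (GRCh38.p14, chr19:13836447-13836467, minus strand).
hsa-miR-27a-3p: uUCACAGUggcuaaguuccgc

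RefSeq also gave the promoter, from 250 bases before to 50 bases after the start of the gene, of 27 of the 46 genes. The promoters of MMP15, the called member among these 27, and of TIMP1, the inhibitor whose call depended on the pairing of arrays, are shown 5′ to 3′ on the strand of the gene (GRCh38.p14, chr16:58025504-58025803 and chrX:47582186-47582485, both plus strand). Capitals mark every match to the motifs searched on both strands, which were the AP-1 site TGANTCA, the GC box GGGCGG, the TATA box TATAAA and the half-site of nuclear receptors AGGTCA.
MMP15: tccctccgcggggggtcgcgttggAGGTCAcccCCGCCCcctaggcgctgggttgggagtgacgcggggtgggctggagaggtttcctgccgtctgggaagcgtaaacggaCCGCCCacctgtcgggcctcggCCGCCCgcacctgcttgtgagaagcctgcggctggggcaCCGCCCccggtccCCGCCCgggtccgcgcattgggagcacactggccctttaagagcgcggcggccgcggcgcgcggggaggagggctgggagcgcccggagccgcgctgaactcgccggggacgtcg
TIMP1: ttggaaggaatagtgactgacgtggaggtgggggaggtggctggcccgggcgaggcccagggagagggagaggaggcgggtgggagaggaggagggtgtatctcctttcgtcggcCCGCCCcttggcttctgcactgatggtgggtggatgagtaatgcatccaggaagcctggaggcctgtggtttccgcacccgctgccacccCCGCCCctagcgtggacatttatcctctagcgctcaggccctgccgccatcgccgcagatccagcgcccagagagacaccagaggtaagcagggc
The MMP15 promoter held 5 GC boxes and 1 half-site, and the TIMP1 promoter held 2 GC boxes. No match overlapped another in either of them. GC boxes were in 19 of the 27 promoters (70.4%), against 45% of all 35115 promoters in the table. TATA boxes were in 7 (25.9% against 11.5%), AP-1 sites in 4 (14.8% against 7.71%) and half-sites in 2 (7.41% against 13.8%). The median GC content was 67% for the members and 58.7% for all promoters. Of the 14 promoters whose gene was detected (well above background) on every one of the 6 arrays, 12 held a GC box and 2 a TATA box, and of the 11 whose gene was so on no array, 6 held a GC box and 4 a TATA box. These counts describe letters in a window and were not tested.

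Signals are log2 values after quantile normalisation, and a difference is the mean of the pre-miR-27a arrays minus that of the pre-control arrays. Levels are not comparable between probes. Each array had 43376 spots other than controls, 0 of them saturated, and 69.9% to 78.0% of them were flagged well above background. Local background had a median between 74.5 and 76 intensity units in the pre-control group and between 52.5 and 53 in the other, and 1559 to 1750 against 3487 to 4153 spots were not found by the image analysis. The pre-control group was hybridised on slide 1 and the pre-miR-27a group on slide 2, so in every result below the effect of transfection and that of the slide cannot be told apart. Of 6 markers of the muscle lineage, MYOD1, MYOG, DES, CHRNA1 and CDH15 were well above background on all 6 arrays and MYF5 on no array, and of the epithelial markers EPCAM, KRT5 and CDH1 none was on any array. Of the 5 tested muscle markers 0 were called by limma, 3 were lower at an unadjusted p under 0.05 and the median difference was −0.35. Of all genes, 14.1% were lower at that unadjusted p, and 8.1% were called lower in a fit blocked on replicate number. MYOG, MYOD1 and CDH15 had differences of −0.95, −0.45 and −0.35 (limma adjusted p = 0.14, 0.0787 and 0.0561), and in the blocked fit they were called lower (adjusted p = 0.0334, 0.0363 and 0.0457). The muscle list had a summed signal of 125745 to 162630 on pre-control and 113332 to 145472 on pre-miR-27a arrays. In the leukocyte list PTPRC was on no array, but CD14 and CD3E were on all 6 and lower on pre-miR-27a arrays (differences −0.71 and −0.44, limma adjusted p = 0.0223 and 0.0348), and the summed signal of the 3 genes was 347 to 382 on pre-control and 241 to 255 on pre-miR-27a arrays. In the fibroblast list FAP was on no array, PDGFRA on 5 and THY1 on all 6, THY1 being lower (−0.57, adjusted p = 0.0293) and PDGFRA not called (0.37, adjusted p = 0.281). The list, in which the THY1 probe is by far the brightest, summed to 4035 to 4615 against 2794 to 3176. The endothelial markers PECAM1, CDH5 and TEK were on 0, 3 and 6 arrays and none was called. The part of these markers in the results below was not tested.

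At baseline, RH36 cells had a signal well above background on all 3 pre-control arrays for 26 of the 46 genes, and these were the same 26 that had it on all 6 arrays (11 MMP, 12 ADAMTS and 3 TIMP genes). Among the MMP genes these were MMP1, MMP2, MMP9, MMP10, MMP11, MMP15, MMP17, MMP19, MMP23B, MMP25 and MMP28. Among the ADAMTS genes they were ADAMTS1, ADAMTS2, ADAMTS3, ADAMTS4, ADAMTS5, ADAMTS6, ADAMTS7, ADAMTS9, ADAMTS10, ADAMTS13, ADAMTS14 and ADAMTS20, and among the inhibitors TIMP1, TIMP2 and TIMP3. Another 7 genes reached that level on some arrays: MMP12, MMP13, MMP16, MMP24, MMP26, ADAMTS8 and ADAMTS15. The remaining 13 reached it on no array, and they were MMP3, MMP7, MMP8, MMP14, MMP20, MMP21, MMP27, ADAMTS12, ADAMTS16, ADAMTS17, ADAMTS18, ADAMTS19 and TIMP4. A probe that is not well above background has only a bound there, so these 13 are not shown to be silent.

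**Figure D1:**
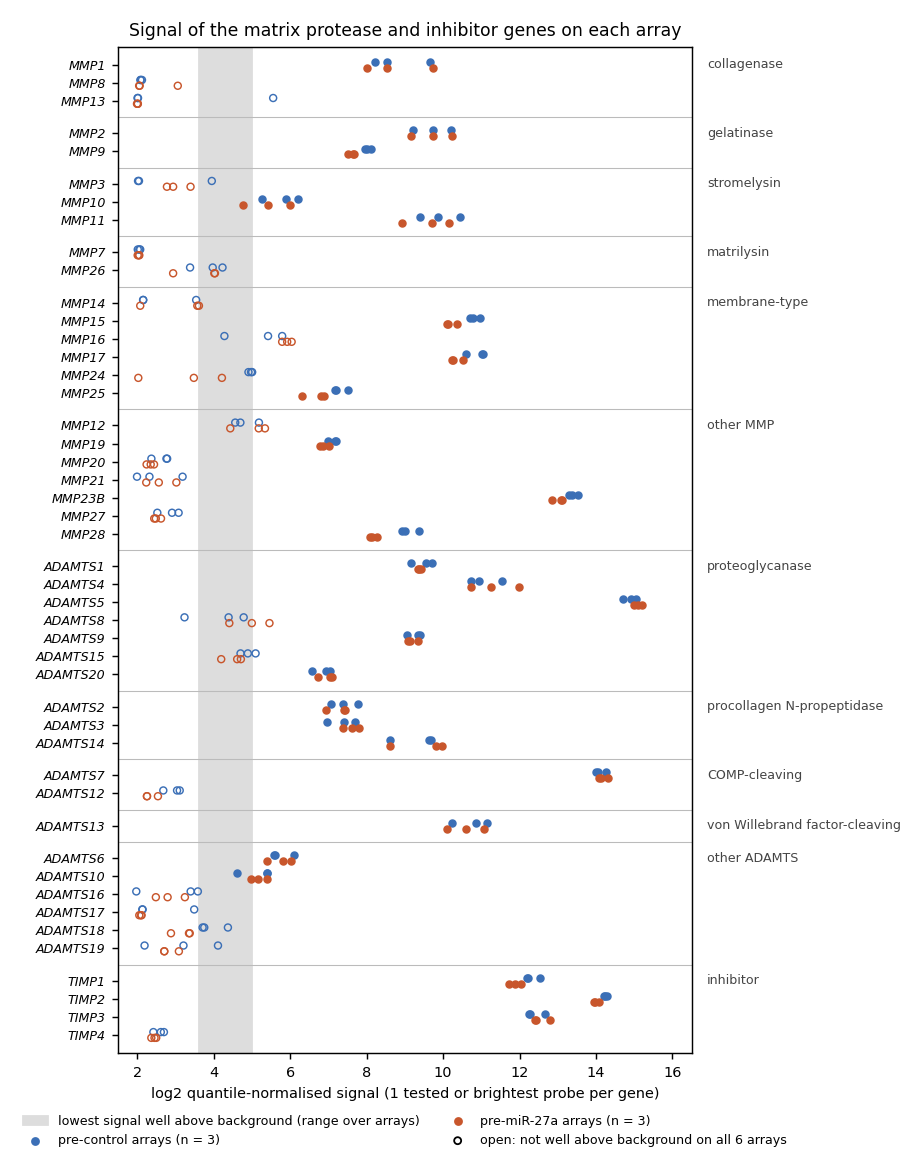
Each row is 1 gene, grouped by class, with its log2 signal on the 3 pre-control arrays (blue) and the 3 pre-miR-27a arrays (orange), and the grey band spans, over the arrays, the lowest signal flagged well above background (3.61 to 5.00). Filled points belong to probes well above background on all 6 arrays, and the rows of MMP28, MMP15, MMP9, MMP17, MMP25, MMP23B, TIMP1 and TIMP2 show the orange points to the left of all blue ones.

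With pre-miR-27a, 3 member genes were lower and 0 were higher by their brightest probe, in the fit that leaves out any pairing of the arrays: MMP28, MMP15 and MMP9. The tests covered 41 of the 46 genes (ADAMTS8, ADAMTS12, MMP3, MMP13 and MMP27 had no probe with at most 1 missing array). Over all 27328 genes tested, 4.33% were called lower and 3.07% higher, and 3 of 41 members is 7.32%. At an unadjusted limma p under 0.05, 9 members were lower and 0 higher, where 14.1% of all genes were lower and 9.68% higher. By probes, 5 of 59 were called (8.47%), 3 lower and 2 higher, against 7.83% of all probes. The members were thus not called at a rate far from that of the array. The 2 higher probes were a dim ADAMTS3 probe and a probe named TIMP2 whose transcript is uncertain, both described below. In bulk RNA, fewer cells with a transcript and less of it per cell cannot be told apart.

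The groups of arrays did not overlap in 11 member genes, all of them lower on pre-miR-27a arrays (26.8% of 41), where 18.9% of all genes were separated in that direction and 12.6% in the other, in which there were 0 members. They were MMP9, MMP15, MMP17, MMP23B, MMP25, MMP28, TIMP1 and TIMP2, which were well above background on all 6 arrays, and the dimmer MMP24, ADAMTS17 and ADAMTS18. The median difference of the tested members was −0.083, with 27 below and 14 above 0, beside a median of −0.037 over all genes (15399 below and 11929 above). In this fit, which leaves out any pairing of the arrays, the median standard error (SE) was 0.22 for the members and 0.14 for all probes. The number of arrays limits the precision as well, since the smallest two-sided p of an exact permutation test of 3 unpaired arrays a group is 0.1.

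Replicates 1, 2 and 3 of the groups deviated together across the array, so the numbers were taken as pairs. The numbers are also positions on the slides, and what the paired arrays share was not tested. With the pair as a block, 5 members were lower and 0 higher (12.2% of 41 against 8.1% of all genes lower and 5.97% higher): the same 3, MMP23B and TIMP1.

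**Figure D2:**
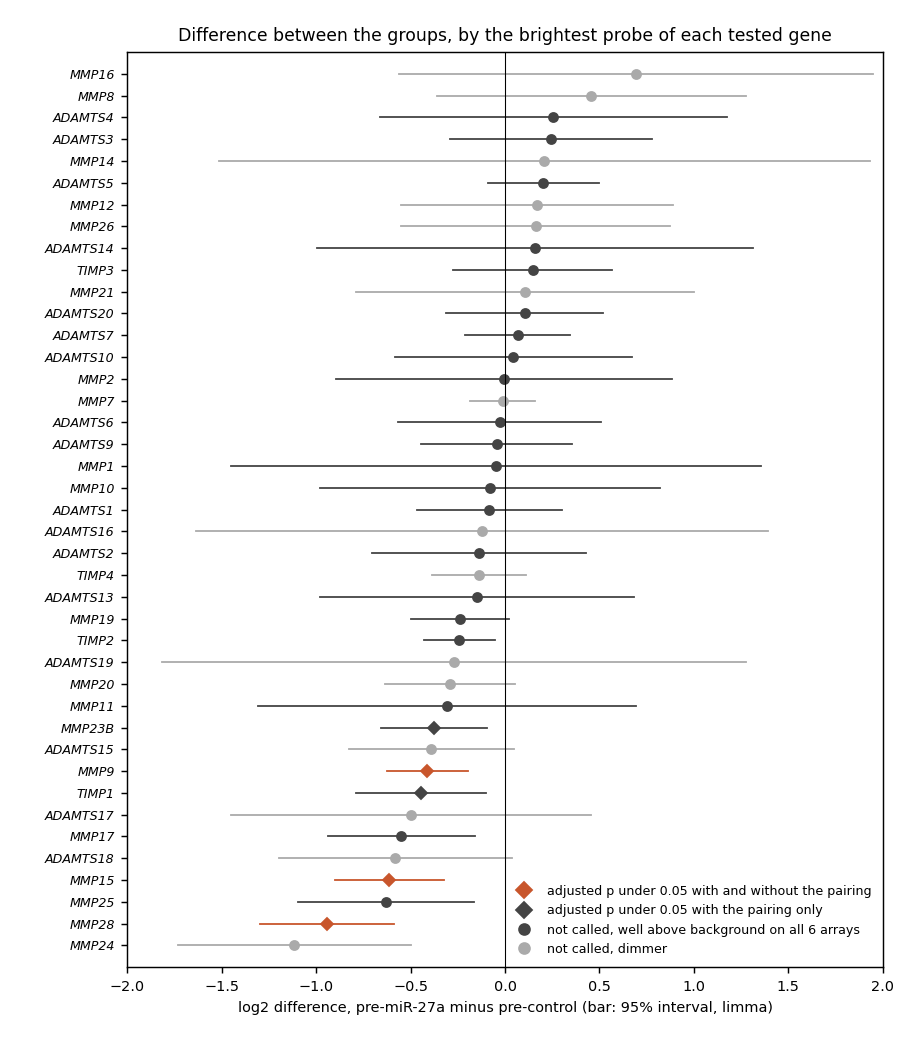
Log2 difference between the groups for the brightest probe of each of the 41 tested genes, with its 95% interval from limma. The intervals of MMP28, MMP15 and MMP9 (orange) lie below 0, as do those of MMP24, MMP25, MMP17, TIMP1, MMP23B and TIMP2, which did not pass the adjusted threshold without the pairing (diamonds mark the genes that passed with it), and no interval lies above 0.

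Collagenases cut the triple helix of fibrillar collagens. MMP1, the interstitial collagenase, had signals of 8.53, 8.23 and 9.66 on the pre-control arrays of replicates 1, 2 and 3, and 8.54, 8.001 and 9.73 on the pre-miR-27a arrays. The arrays fell in the same order by replicate number in both groups, and the groups overlapped throughout. Its difference was −0.05 (SE 0.57, limma adjusted p = 0.971), and within the pairs it was 0.02, −0.22 and 0.06. MMP8, the neutrophil collagenase, was well above background on no array, and collagenase-3, MMP13, on 1 pre-control array.

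The gelatinases cut denatured collagen and type IV collagen of basement membranes. MMP9 had signals of 8.01, 8.11 and 7.94 on pre-control arrays and 7.66, 7.64 and 7.51 on pre-miR-27a arrays, with 10 spots of its probe averaged on each array. Every pre-miR-27a array lay below every pre-control array. MMP9 fell by 0.41 on the log2 scale, that is 1.33-fold (SE 0.09, adjusted p = 0.0475, limma), and by 0.35, 0.47 and 0.42 within the pairs. It was not called with 75th percentile scaling (adjusted p = 0.0503), with another background correction, normexp (0.0583), or with a variance trend (0.0507). MMP2, the other gelatinase, gave 10.20, 9.22 and 9.72 on pre-control and 10.24, 9.17 and 9.72 on pre-miR-27a arrays. Its values followed the replicate number almost exactly, and the difference between the groups was −0.0040. Without the block its 95% interval was −0.89 to 0.89 (limma adjusted p = 0.997), and with the block its SE was 0.054 (limma adjusted p = 0.965). Within the pairs MMP2 differed by 0.04, −0.05 and 0.0012, and the sign of its mean difference turned under other scalings. Whether the MMP9 and MMP2 differences differ from each other was not tested.

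Stromelysins act on proteoglycans, laminin and fibronectin and activate other MMP precursors. Stromelysin-2, MMP10, gave 5.25, 6.19 and 5.89 on pre-control arrays and 4.77, 5.42 and 5.99 on pre-miR-27a arrays, the first of which was not found as a spot and left out of the fit (difference −0.08, SE 0.34, adjusted p = 0.921). MMP11 (stromelysin-3) had 9.86, 9.39 and 10.45 against 9.72, 8.92 and 10.14. The groups overlapped for both genes, and MMP11 differed by −0.14, −0.47 and −0.31 within the pairs, while its difference of −0.31 did not pass the test (SE 0.40, adjusted p = 0.698, and 0.0985 with the block). MMP3 (stromelysin-1) and the matrilysins MMP7 and MMP26 were on no array, or for MMP26 on 1, well above background.

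Membrane-type MMPs are held at the cell surface, where MMP14 is known as the activator of the MMP2 precursor. In RH36 cells MMP14 itself was well above background on none of the arrays, whereas MMP15, MMP17 and MMP25 were on all 6. MMP15 had signals of 10.69, 10.78 and 10.97 on pre-control and 10.13, 10.11 and 10.37 on pre-miR-27a arrays. No array of the latter reached the former, and MMP15 fell by 0.61 on the log2 scale, 1.53-fold (SE 0.12, adjusted p = 0.0393), by 0.56, 0.67 and 0.60 within the pairs. The promoter with 5 GC boxes printed above is that of this gene. Its dimmer probe, 958 bases nearer the 5′ end, differed by 0.15 (SE 0.15, adjusted p = 0.612), so the call rests on 1 of 2 probes, and the mean of both differed by −0.26 (adjusted p = 0.258).

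MMP17, which is anchored by a lipid, gave 11.01, 11.05 and 10.59 on pre-control arrays and 10.51, 10.27 and 10.22 on pre-miR-27a arrays, a difference of −0.55 (SE 0.16, adjusted p = 0.0989). MMP25, the other lipid-anchored member, gave 7.20, 7.51 and 7.18 against 6.80, 6.88 and 6.31, a difference of −0.63 (SE 0.19, adjusted p = 0.108). In both genes the groups did not overlap, yet neither passed the adjusted threshold, and neither did with the block (adjusted p = 0.0532 and 0.0503). By their brightest probe, the 3 membrane-type genes with a probe well above background on all 6 arrays had differences between −0.63 and −0.55, of which 1 was called. The other MMP15 probe, at 0.15, lies outside this range. MMP24 was dim, with 5.00, 4.97 and 4.91 on pre-control and 4.21, 3.48 and 2.02 on pre-miR-27a arrays, with the spot of replicate 3 not found, and it was well above background on 2 arrays of the first group and 1 of the second. Its difference of −1.12 (SE 0.24) had an adjusted p of 0.0625, and it was −0.16 with normexp (adjusted p = 0.437) and −1.72 with no filter on dim probes (0.132), so its size is not settled. By its brighter probe MMP16 ran the other way, at 5.79, 4.28 and 5.42 against 5.92, 5.79 and 6.04, with the pre-miR-27a spot of replicate 3 not found. This difference of 0.69 was within its error (SE 0.48, adjusted p = 0.45). The other MMP16 probe, well above background on 4 arrays, differed by −0.095 (SE 0.16, adjusted p = 0.763). The mean of both differed by 0.33 (adjusted p = 0.468), so the direction of MMP16 is not settled. Over the 6 genes of the class the median difference was −0.58, with 1 called lower and 0 higher (unadjusted p under 0.05 in 4 lower and 0 higher), beside the shares of all genes given above. This median includes MMP14, MMP16 and MMP24, which were dim.

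Among the other MMP genes, MMP28, known as epilysin, had the largest difference of the 3 called genes. It gave 8.91, 9.38 and 9.01 on pre-control arrays and 8.14, 8.26 and 8.08 on pre-miR-27a arrays. The groups were far apart relative to their spread, and MMP28 fell by 0.94 on the log2 scale, 1.92-fold (SE 0.14, adjusted p = 0.0251), by 0.77, 1.12 and 0.93 within the pairs. A second, dimmer probe of the same transcript (NM_024302), 12729 bases nearer the 3′ end by the file's positions, differed by −0.28 (SE 0.32, adjusted p = 0.651), at 5.81, 6.23 and 4.98 against 5.38, 5.53 and 5.28. Both probes had the same sign, and their mean differed by −0.61 (adjusted p = 0.159).

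MMP23B, a small MMP held in the membrane by its own precursor end, gave 13.52, 13.29 and 13.37 on pre-control arrays and 13.12, 12.85 and 13.09 on pre-miR-27a arrays. The groups did not overlap, and its difference of −0.37 (SE 0.11) had an adjusted p of 0.111, of 0.0450 with the pairs as a block and of 0.0478 with normexp. A nearly identical pseudogene, MMP23A, is listed in RefSeq, so the signal may come from either. MMP19 had 6.97, 7.17 and 7.20 against 7.00, 6.86 and 6.78 (difference −0.24, SE 0.10, adjusted p = 0.236). The groups overlapped by 1 array of each. A brighter MMP19 probe gave 8.07, 8.08 and 7.90 against 7.72, 7.64 and 7.51 but was flagged as not found on too many arrays to be tested. MMP12 (macrophage elastase) was well above background on 4 arrays, and MMP20, MMP21 and MMP27 on none.

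The call of MMP15 and that of MMP9 were lost whichever single array was left out (adjusted p from 0.0660 to 0.131 and from 0.0853 to 0.139), and that of MMP28 held only without pre-control replicate 1 (adjusted p from 0.0441 to 0.0954). The differences in these fits ranged from −0.69 to −0.54 for MMP15, from −0.45 to −0.37 for MMP9 and from −1.04 to −0.80 for MMP28. Calls fell over the whole array as well, from 2856 probes with no array left out. Without pre-control replicate 1 there were 1276, without pre-control replicate 3 there were 81, and in each other such fit 0. Losing a call in the fits with 0 or 81 therefore does not set these genes apart from the rest of the array.

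**Figure D3:**
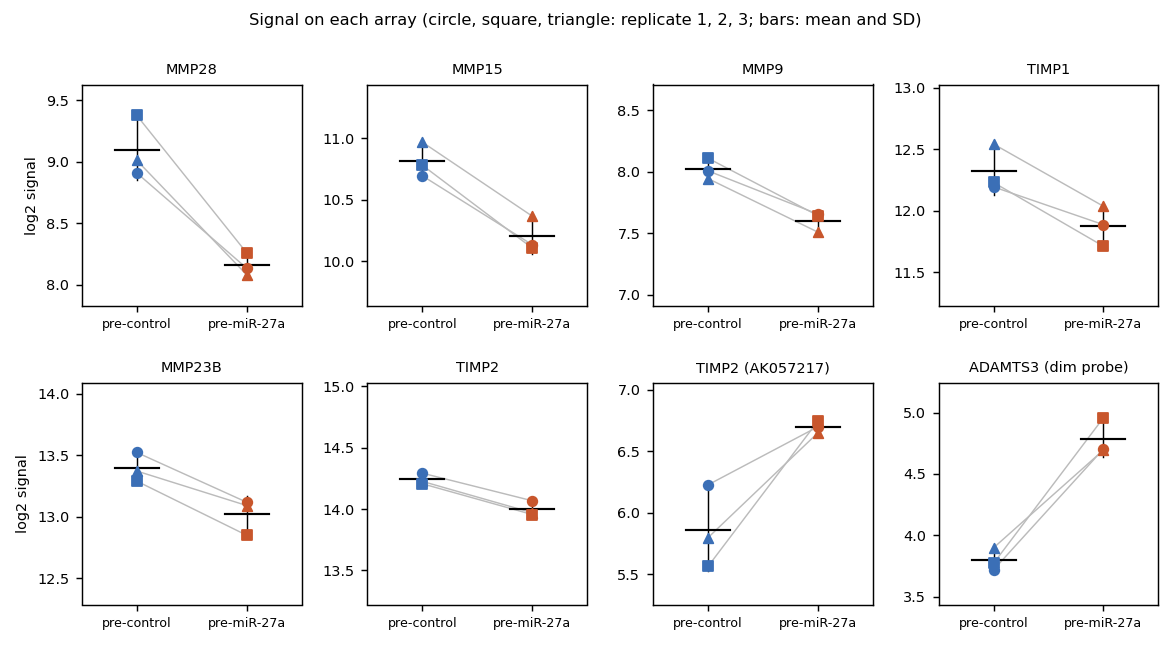
Log2 signal on each array for 8 probes, with grey lines joining arrays of the same replicate number and black bars for the mean and SD of 3 arrays, on axes that all span the same range. In MMP28, MMP15, MMP9, TIMP1, MMP23B and the brighter TIMP2 probe all 3 lines go down, and in the TIMP2 probe AK057217 and the dim ADAMTS3 probe all 3 go up.

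None of the 17 tested ADAMTS genes was called by its brightest probe, and at an unadjusted limma p under 0.05 there were 0 in either direction. Proteoglycanases cut aggrecan and versican, and 5 of the 7 on the array were well above background on all 6 arrays. ADAMTS1 gave 9.71, 9.15 and 9.55 on pre-control and 9.43, 9.38 and 9.35 on pre-miR-27a arrays (difference −0.08, SE 0.15). ADAMTS4, the first aggrecanase to be named, gave 10.94, 10.74 and 11.54 against 11.26, 10.74 and 11.99 (0.26, SE 0.37), with the replicates in the same order in both groups. The groups overlapped in both. ADAMTS5, a major aggrecanase, had 14.92, 14.71 and 15.04 against 15.21, 14.98 and 15.09, and was higher in each pair by 0.29, 0.28 and 0.04 without passing the test (0.20, SE 0.12, adjusted p = 0.361). ADAMTS9 had 9.40, 9.35 and 9.06 against 9.09, 9.34 and 9.13, with the second pre-control spot not found (−0.05, SE 0.15). A dimmer ADAMTS9 probe went the other way, at 5.61, 5.32 and 5.51 against 5.74, 6.04 and 5.69, with the groups apart and the difference not called (0.34, SE 0.13, adjusted p = 0.194). ADAMTS20 had 6.93, 7.03 and 6.57 against 7.04, 7.09 and 6.71 (0.10, SE 0.17). ADAMTS9 by its brighter probe and ADAMTS20 overlapped between the groups, and ADAMTS15 and ADAMTS8 were well above background on 4 and 2 arrays.

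ADAMTS2, ADAMTS3 and ADAMTS14 remove the N-terminal propeptide of fibrillar procollagens, and all of them had a probe well above background on all 6 arrays. ADAMTS2 gave 7.06, 7.37 and 7.76 on pre-control and 7.39, 6.94 and 7.44 on pre-miR-27a arrays (−0.14, SE 0.23, adjusted p = 0.763). ADAMTS14 gave 9.68, 8.61 and 9.62 against 9.80, 8.62 and 9.97 (0.16, SE 0.47, adjusted p = 0.876). In ADAMTS14 the second replicate was the lowest of its group in both groups, about 1 unit under the others, while its pairs differed by 0.12, 0.0056 and 0.35. ADAMTS3 gave 6.95, 7.68 and 7.40 against 7.37, 7.79 and 7.61 by its brighter probe, higher in each pair by 0.42, 0.11 and 0.20 and not called (0.24, SE 0.22, adjusted p = 0.549, and 0.142 with the block).

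A second ADAMTS3 probe, 2350 bases nearer the 5′ end, was well above background on no pre-control array and on all 3 pre-miR-27a arrays. It read 3.72, 3.77 and 3.90 on the former and 4.70, 4.96 and 4.69 on the latter. The groups were clearly separated, the means being 3.80 and 4.78, and the difference was called (adjusted p = 0.0176, limma). Against the lowest signals that were well above background on the pre-control arrays, the rise was at least 1.09-fold, and no larger value can be stated for this probe. The call held with the pairs as a block (limma adjusted p = 0.0334). With normexp the difference was no longer called (0.24, adjusted p = 0.112), and leaving out any array other than pre-control replicate 1 also ended the call (adjusted p up to 0.0767). The fits without one of those other arrays called only 0 to 81 probes on the whole array.

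ADAMTS7, which cuts cartilage oligomeric matrix protein, had 14.25, 14.06 and 13.99 on pre-control arrays and 14.31, 14.07 and 14.12 on pre-miR-27a arrays. Its difference of 0.07 (SE 0.11, adjusted p = 0.768) turned to −0.04 with 75th percentile scaling, and RefSeq lists several pseudogenes of ADAMTS7 whose transcripts the probe might share. ADAMTS12, with the same substrate, was well above background on no array. The protease of von Willebrand factor, ADAMTS13, had 10.85, 10.22 and 11.16 against 10.60, 10.11 and 11.08, with −0.26, −0.11 and −0.08 within the pairs (difference −0.15, SE 0.34, adjusted p = 0.834, and 0.202 with the block). A dimmer ADAMTS13 probe 16863 bases nearer the 5′ end gave 7.39, 7.84 and 7.64 against 6.98, 7.21 and 6.98. For that probe the groups were apart and the difference of −0.56 (SE 0.14) had an adjusted p of 0.0747, and of 0.0375 with the block. Another ADAMTS13 probe, also well above background on all 6 arrays, differed by 0.06 (SE 0.21, limma adjusted p = 0.893, and 0.704 with the block). The probes of ADAMTS13 therefore did not share a direction.

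Of the other ADAMTS genes, ADAMTS6 gave 5.61, 6.10 and 5.59 on pre-control and 5.40, 5.80 and 6.02 on pre-miR-27a arrays (−0.03, SE 0.22). ADAMTS10, which is tied to microfibrils, gave 5.40, 5.39 and 4.60 against 5.40, 4.97 and 5.14 (0.04, SE 0.25, and −0.07 with 75th percentile scaling). The groups overlapped in both, and ADAMTS16, ADAMTS17, ADAMTS18 and ADAMTS19 were well above background on no array. Over all tested members whose tested probe did not reach that level on every array, the differences ran from −1.12 (MMP24) to 0.69 (MMP16), and the lowest adjusted p was that of MMP24.

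Of the inhibitors, TIMP1 and TIMP2 were lower on every pre-miR-27a array than on any pre-control array, though neither passed the adjusted threshold without the pairing. TIMP1, which blocks most soluble MMPs, gave 12.19, 12.23 and 12.54 on pre-control and 11.89, 11.71 and 12.04 on pre-miR-27a arrays. It differed by −0.44 (SE 0.14, adjusted p = 0.120), by −0.31, −0.52 and −0.51 within the pairs, and was called with the pairs as a block (adjusted p = 0.0441). TIMP2, which also takes part in the activation of the MMP2 precursor at the cell surface, gave 14.29, 14.21 and 14.22 against 14.07, 13.96 and 13.97. The difference was −0.24 (SE 0.08, adjusted p = 0.119, and 0.0613 with the block), with −0.22, −0.25 and −0.25 within the pairs. TIMP3, which binds to the matrix and also blocks ADAMTS proteases, gave 12.65, 12.26 and 12.25 against 12.80, 12.39 and 12.42. Replicate 1 was the highest in both groups, the pairs differed by 0.14, 0.13 and 0.16, and the difference of 0.15 was not called (SE 0.17, adjusted p = 0.656, and 0.137 with the block). TIMP4 was well above background on none of the arrays (2.61, 2.69 and 2.42 against 2.36, 2.45 and 2.49). Of the 4 genes 0 were called without the block, 2 were lower and 0 higher at an unadjusted limma p under 0.05 (14.1% and 9.68% of all genes).

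A second probe named TIMP2 in the array files moved the other way. It was designed on the cDNA AK057217, which the file describes as similar to the mouse testis protein DDC8, and RefSeq gives DDC8 as an older name both of TIMP2 and of CEP295NL, a gene that lies within TIMP2. Its signals were 6.23, 5.56 and 5.80 on pre-control and 6.70, 6.75 and 6.65 on pre-miR-27a arrays, a rise of 0.84 on the log2 scale or 1.78-fold (SE 0.18, adjusted p = 0.0492). The call was lost with the block (adjusted p = 0.0555), with 75th percentile scaling (0.0597) and with no filter on dim probes (0.0526). All pre-miR-27a arrays lay above all pre-control arrays, but which transcript this probe reports is uncertain. It does not enter the counts of genes by their brightest probe above, but it is among the called probes counted there. Among the fits that left out 1 array, its call held only without pre-control replicate 1 (adjusted p from 0.0424 to 0.146). The other fits of this kind called only 0 to 81 probes on the whole array.

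Several probes of 1 gene often differed. In the 8 genes with at least 2 tested probes well above background on all 6 arrays, the probes had the same sign in 3 (ADAMTS1, ADAMTS2 and MMP28), and the median gap between the lowest and the highest difference of a gene was 0.51. The gap was 1.08 for TIMP2, 0.76 for MMP15 and 0.66 for MMP28, the genes with a called probe, and 0.04 to 0.62 for the other genes. These values go by the gene names in the array files. TIMP2 therefore enters them with AK057217, and its gap may be one between transcripts of different genes. The 2 ADAMTS1 probes, 84 bases apart, differed by −0.08 and −0.05. Another ADAMTS2 probe, designed on AJ003125, gave 6.13, 5.51 and 6.31 against 5.69, 5.20 and 5.84 and was called with the block only (difference −0.41, adjusted p = 0.416 and 0.0416).

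**Figure D4:**
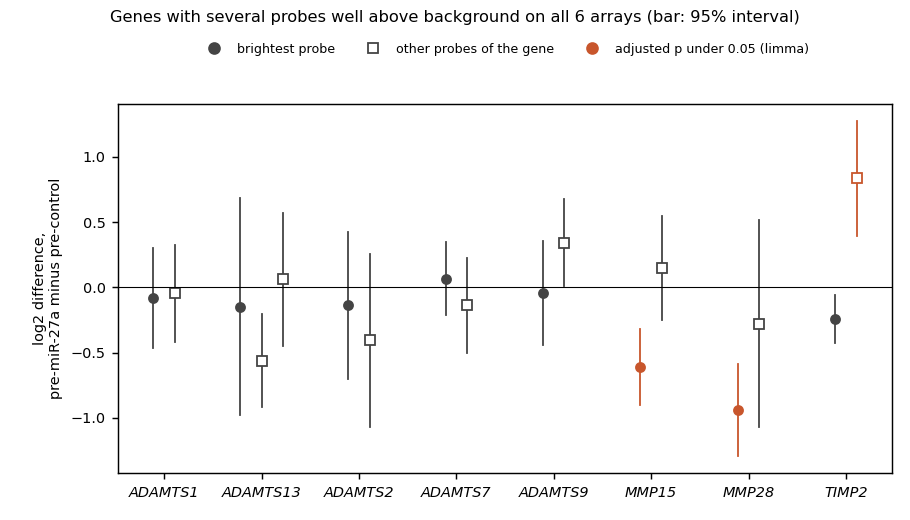
Log2 difference with its 95% interval for each probe of the 8 genes with more than 1 tested probe well above background on all 6 arrays, the brightest probe of a gene first (circle). The called probes (orange) of MMP15, MMP28 and TIMP2 have a neighbour under the same gene name that was not called. For TIMP2 the called probe is AK057217, whose transcript is uncertain.

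Proteins that act with these proteases were counted from a list of 28 (activating convertases, the plasminogen activator system, ADAM and ADAMTS-like proteins, cathepsins and other inhibitors). Of these, 23 were well above background on all 6 arrays and 27 were tested, with 1 lower, 0 higher and a median difference of −0.0052. The called gene was ADAM33, a membrane-bound ADAM protease, with −0.81 (SE 0.08, adjusted p = 0.0176). At an unadjusted limma p under 0.05, 3 were lower and 3 higher, and with the block 2 were lower (ADAM33 and ADAMTSL5) and 2 higher (ADAMTSL3 and ADAMTSL4). Of all genes, 14.1% were lower and 9.68% higher at that unadjusted p, and 8.1% and 5.97% were called with the block. The convertase FURIN, which activates membrane-type MMPs, differed by 0.0035 (SE 0.18), and RECK, a membrane-bound inhibitor of MMPs, by −0.15 (SE 0.22). Among 19 matrix proteins that these enzymes cut, all were tested, 16 were well above background on all 6 arrays, and 0 were called by limma, with 0 lower and 1 higher at an unadjusted p under 0.05 and a median difference of 0.072. With the block 0 were lower and 0 higher. The gene at an unadjusted p under 0.05 was VCAN, the proteoglycan versican (0.39, SE 0.09, adjusted p = 0.0554).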

How the data were processed

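RNA of 6 samples of RH36 cells was hybridised in 1 colour (Cy3) to 6 Agilent arrays. The authors deposited processed intensities from Feature Extraction 10.5.1.1, corrected for background within each array and not normalised between arrays, with mean and local background intensities and 0 or 1 quality flags. The table of log2 values that the authors deposited was found, by setting it against the arrays, to hold quantile-normalised log2 signals (median difference 0.0040, largest 1.16, largest for members 0.10). No per-sample column was unused (0 columns).

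Log2 processed signals of spots other than controls were quantile normalised, spots not found were set to missing, replicate spots were averaged and probes missing on more than 1 array were removed, which kept 36469 of 41000 probes. Groups were compared with limma (version 3.58.1, run under R 4.3.3), with Benjamini-Hochberg adjustment over all kept probes and a threshold of 0.05. The procedure was also run on simulated arrays with independent noise and added changes larger than those called in the members. The simulation had no pairs and no slide effect, so it does not bear on the calls given here. Values per array are printed as measured, also for spots not found, which means and fits leave out. For a fold of at least N, the other group is represented by the lowest signal well above background on each of its arrays. The study's methods name SAM, and limma was used here in its place. Alternatives were 75th percentile scaling, normexp (offset 50), other filters and flags, the deposited values, a variance trend with robust estimation, other rules for several probes, the replicate block, each array left out and, chosen after seeing the data, outlier spots left out.

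Same-numbered arrays of both groups correlated in their deviations from the group means (r = 0.40, 0.46 and 0.41 over 31717 probes, against −0.27 to −0.12 for different numbers). Deviations from a group mean cancel out within the group, so the negative values for different numbers follow from the positive ones and are no separate evidence. All 3 were above 0.1, so the numbers, which the labels give, were taken to pair the arrays. They are also positions on the slides, and whether the arrays share a culture or a position cannot be told apart.

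The members and lists were chosen with earlier results of these data known. Every member is named, and values per array are given for members called by any probe, for the TIMP genes and for members well above background on all 6 arrays or on all arrays of 1 group and on none of the other. Of the lists, 2 genes are not reported here and enter none of the counts and sums. From the lists the called genes and a few others are named. FURIN, RECK, VCAN and the genes called with the block were chosen after their values were seen. So were MMP16, MMP24 and the dimmer probes of ADAMTS2 and ADAMTS13 that are given. Where a gene has several probes, the brightest stands for it. Gene names are those of the files, and all 46 members matched a symbol of the RefSeq table for GRCh38.p14. The build of the probe positions is not given in the sources used here.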

Additional observations from a re-analysis of the deposited data

How the results depend on the processing

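The median difference of the members was −0.28 with 75th percentile scaling, where that of all probes went from −0.022 to −0.095. The replicate block gave 5 member genes and 5421 probes. The mean of a gene's probes gave 0 member genes by limma, and counting a gene when any probe was called gave 5. Both rules take AK057217 as a probe of TIMP2. By the flag for a found spot, 42 member genes counted as detected at baseline, on the pre-control arrays, in place of 26. Leaving out 1 array gave 0 to 1 member genes, 0 to 1276 probes and member medians from −0.19 to 0.021. The sign turned with 75th percentile scaling for ADAMTS10 (−0.074), ADAMTS7 (−0.043) and MMP2 (0.032), with normexp for MMP2 (0.0018), and with the mean of probes for ADAMTS6 (0.013), ADAMTS7 (−0.12), ADAMTS9 (0.13) and TIMP2 (0.30). With 1 array left out, differences ran from −0.24 to 0.036 for ADAMTS1, −0.22 to 0.18 for ADAMTS10, −0.41 to 0.094 for ADAMTS13, −0.19 to 0.58 for ADAMTS14, −0.31 to 0.046 for ADAMTS2, −0.034 to 0.22 for ADAMTS20, −0.073 to 0.55 for ADAMTS4, −0.17 to 0.14 for ADAMTS6, −0.0057 to 0.14 for ADAMTS7, −0.21 to 0.12 for ADAMTS9, −0.53 to 0.38 for MMP1, −0.36 to 0.21 for MMP10, −0.58 to 0.032 for MMP11 and −0.27 to 0.27 for MMP2. None of these genes was called in any of these fits, and the cause was not tested. The calls that MMP9 and the TIMP2 probe AK057217 lost, and that MMP23B gained with normexp, are given above. MMP24 was called with the flag for a positive and significant signal (adjusted p = 0.0466) and in the deposited values (0.0460), and in no other fit to all 6 arrays (−0.16 with normexp, adjusted p = 0.437, and −1.72 with no filter on dim probes, 0.132). The ADAMTS13 probe nearest the 5′ end was called with 75th percentile scaling (0.0446) and with the filter on probes well above background (0.0488). In all, 427 of the comparisons of single genes with an alternative kept direction and call, 36 lost the call, 9 gained it and 33 changed sign. A block for the slide could not be fitted, since each slide holds 1 group. Dim probes give only bounds.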
